A study of Brassica napus with 27 samples.

Results

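PIP2 (LOC106392705) encodes a water channel of the plasma membrane, and it is 1 of the 119532 genes counted in the leaf transcriptome of Brassica napus, oilseed rape. It was picked by its identifier because its level moved in opposite directions in short days in wild type and in a double mutant. Its values in those genotypes, and every comparison made with them, are therefore a description and carry no test. Only its changes within a single mutant, which played no part in the choice, were tested.

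Leaves came from 3 genotypes of the crop, of which the wild type is named as Westar. The single line, bnaa06fah, was mutated in BnaA06FAH, and the double line, bnafah, in both BnaA06FAH and BnaC05FAH, genes for the last enzyme of tyrosine breakdown. Both lines were made with CRISPR/Cas9 and are described as free of the transgene. The design text calls their alleles null, whereas sample labels speak of a knock down, and the sample descriptions name 1 line for each mutant genotype. Seedlings of all genotypes grew on MS medium and then in soil in long days (LD), and leaves were taken before transfer to short days and 1 day (SD1) and 2 days (SD2) after it. The growth protocol gives the same light period for both regimes, so the length of the short day is uncertain. No leaves kept in long days to SD1 or SD2 enter these comparisons, so age and day length cannot be told apart. The study asked which transcripts accompany programmed cell death in these mutants.

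Each of the 9 groups held 3 libraries, 27 in all. The labels do not say that replicates are separate plants, so the spread and the p-values measure differences between libraries, which may be technical in part. Total counts were 49700646 to 58862542 per library, and replicates correlated at 0.883 to 0.957 on log2 CPM (counts-per-million). Double-line SD2 replicate 2 stood apart from the other libraries of its group, at -5.43 on the second principal component against 117 and 124. The leaf label was set beside the few markers that carry names, which cannot tell leaves from other green tissue. Plastid rbcL and psbA were counted in every library, where they summed to 4.26 to 16.6 CPM. The flower markers AG1, AP34 and AP32 together reached at most 1.02 CPM. No nuclear gene for Rubisco or the light-harvesting complexes carries a name here, and the FAH genes were not analysed. Leaves are mixtures of cell types, and fewer cells of a type cannot be told apart from less RNA per cell.

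Aquaporins are tetrameric membrane pores. Plasma membrane intrinsic proteins, the PIP family, let water cross the outer membrane of plant cells, and tonoplast intrinsic proteins, the TIP family, do so at the vacuole. From work in other plants, such as Arabidopsis and maize, PIP2-type channels are efficient water channels, some also pass hydrogen peroxide, and PIP1-type proteins often need a PIP2 partner to reach the plasma membrane. In leaves these channels help set how easily water moves from the veins to the mesophyll, and cells close them by dephosphorylation and by acid cytosol.

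In wild-type leaves in long days, PIP2 stood at 22.7, 39.3 and 19.1 CPM in replicates 1, 2 and 3. After 1 short day it stood at 40.4, 39.2 and 46.9 CPM. After 2 short days the replicates read 112, 17.4 and 74.2 CPM. Replicates 1 and 3 of SD2 were above all long-day libraries, whereas replicate 2 was below all of them, so the ranges overlapped. The means were 27.05 ± 10.8, 42.2 ± 4.14 and 68.0 ± 47.8 CPM (SD, n = 3 each). On the log2 scale, the fitted difference from LD was 0.64 ± 0.43 (SE) at SD1 and 1.33 ± 0.44 at SD2, the latter a 2.51-fold higher level. The SD2 difference rests on which library is kept: it was 1.79, or 3.45-fold, without SD2 replicate 2 and 0.76, or 1.69-fold, without SD2 replicate 1. Without SD2 replicate 3 it was 1.26.

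The wild-type SD2 replicates differed more in PIP2 than in most genes of like level. The coefficient of variation of PIP2 there was 70.3%, against a median of 16.0% over the 3435 genes whose mean in that group lay within 2-fold of it, and 98.5% of those genes varied less. Replicate 2, the low one, lay near its partners on the second principal component, at 31.0 against 44.8 and 49.7. PIP2 was also variable before transfer, with a coefficient of variation of 39.8% in wild-type LD and 41.2% in single-line LD. It was steady in wild-type SD1, at 9.82%.

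PIP2 in the double line stood high in long days and lowest of all at SD2. In long days its PIP2 levels were 91.2, 60.1 and 48.5 CPM, all above the 3 wild-type long-day libraries. At SD1 they were 48.0, 59.7 and 66.7 CPM, within the span of the long-day libraries but for 1 just under it. At SD2 they were 7.61, 9.83 and 6.06 CPM, and these 3 libraries were the lowest of all 27. The means were 66.6 ± 22.1, 58.1 ± 9.47 and 7.83 ± 1.90 CPM (SD, n = 3 each). Raw counts behind the SD2 values were 499, 560 and 384, so counting error does not set their precision.

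The double line's fitted log2 difference from its own LD was -0.20 ± 0.43 (SE) at SD1 and -3.09 ± 0.47 at SD2, the latter an 8.50-fold lower level. Leaving out any 1 library of the groups compared gave -3.28 to -2.80. Without SD2 replicate 2, the library that stood apart, it was -3.28. That library's own PIP2 level, 9.83 CPM, was the highest of the 3 and below all libraries of other groups. Against wild type, the double line differed by 1.30 ± 0.44 in LD, by 0.46 ± 0.43 at SD1 and by -3.12 ± 0.47 at SD2, an 8.68-fold lower level. The gap at SD2 was -3.57 to -2.55 when 1 library was left out. Among the 72039 genes with enough counts to be tested, 15.7% changed between double-line LD and SD2 at an edgeR adjusted p under 0.05, and 5.87% between wild-type LD and SD2. PIP2 was chosen on these changes, so nothing is read from its place among them.

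**Figure D1:**
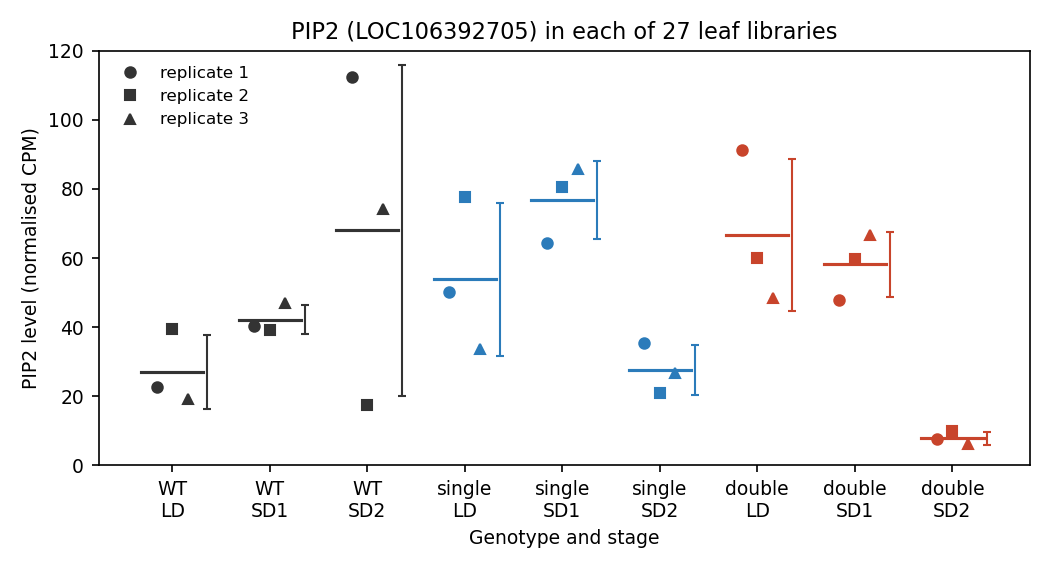
PIP2 level in CPM in each of the 27 libraries by genotype and stage, on an axis from 0, with points for replicates, horizontal lines at the means of 3 and brackets for ± 1 SD. The double-line SD2 libraries, at 6.06 to 9.83 CPM, lie below all others, and wild-type SD2 spreads from 17.4 to 112 CPM.

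The single line, whose edit leaves BnaC05FAH, did not enter the choice of the gene. Its PIP2 levels were 50.2, 77.7 and 33.7 CPM in LD, 64.2, 80.6 and 85.7 CPM at SD1, and 35.4, 20.8 and 26.6 CPM at SD2. The means were 53.9 ± 22.2, 76.9 ± 11.2 and 27.6 ± 7.33 CPM (SD, n = 3 each). All SD1 libraries stood above all SD2 libraries, while LD overlapped with both. The log2 difference from LD was 0.51 ± 0.43 (SE) at SD1 and -0.96 ± 0.43 at SD2, and SD2 differed from SD1 by -1.48 ± 0.44.

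None of these 3 single-line differences passed the threshold of 0.05 on the adjusted p of edgeR's quasi-likelihood test, adjusted over all tested genes by Benjamini and Hochberg. The adjusted p was 0.659 for SD1 against LD, where 0.268% of all genes passed, 0.159 for SD2 against LD and 0.392 for SD2 against SD1. In the last comparison 0.00416% of genes passed, 3 in all, against 5780 with an unadjusted p under 0.05. PIP2 was one of the latter, with an unadjusted edgeR p of 0.00271 and a 2.78-fold lower level at SD2. For SD2 against LD, where 9.97% of genes passed, its unadjusted edgeR p was 0.0364. DESeq2 gave adjusted p-values of 0.633, 0.106 and 0.0772 for the same differences.

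Set in order of their means, the 9 groups ran from double-line SD2 through wild-type LD, single-line SD2, wild-type SD1, single-line LD, double-line SD1, double-line LD and wild-type SD2 to single-line SD1. Double-line SD2 was the only group whose range overlapped with none of the other 8, and the next mean was 3.45-fold higher. Wild-type LD and single-line SD2 overlapped and differed 1.02-fold. Single-line SD2 and wild-type SD1 did not overlap and differed 1.53-fold. From wild-type SD1 upward each group overlapped with the next. Of the 36 pairs of groups, 18 overlapped and 18 did not, with 3 libraries on each side.

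PIP2 was among the more abundant transcripts of the leaf. Outside double-line SD2 its CPM exceeded that of 86.6% to 98.7% of the tested genes in the same library. In the double-line SD2 libraries it exceeded 65.5% to 76.1%. The gene's share of all counts ran from 0.000690% to 0.0124%, and its level showed little relation to the depth of the library (Pearson r = -0.13 over the 27 libraries, given as a description). The order of the libraries by PIP2 was nearly the same in the authors' FPKM table, with a rank correlation of 0.987 across the 27 libraries.

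Other aquaporin genes were found by name. The reference table names 2, PIP1 (LOC106382572), a partner-type channel of the plasma membrane, and gamma-TIP2 (LOC106410672), a vacuolar water channel. Oilseed rape has many more aquaporin genes that carry no name in the table, and near-identical copies of a gene are common in this polyploid crop. How the counting treated reads shared by such copies is not given in the sources used here, so the levels of all 3 genes are uncertain to that extent.

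PIP1 in wild type read 89.3, 168 and 146 CPM in LD, 118, 76.1 and 64.5 CPM at SD1 and 101, 63.2 and 85.7 CPM at SD2. The log2 difference from LD was -0.69 ± 0.35 (SE) at SD2, with an edgeR adjusted p of 0.228. The double-line libraries of PIP1 read 68.0, 108 and 156 CPM in LD, 53.8, 154 and 136 CPM at SD1 and 75.9, 66.2 and 48.1 CPM at SD2. The SD2 difference from LD was -0.81 ± 0.35, with an edgeR adjusted p of 0.119, and the ranges overlapped. The double line and wild type differed at SD2 by -0.39 ± 0.35 (edgeR adjusted p = 0.529). PIP1 thus passed in neither direction, in comparisons where 5.87%, 15.7% and 6.8% of all tested genes were called.

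Gamma-TIP2 was the most abundant of the 3. In wild type it read 242, 241 and 216 CPM in LD, 274, 169 and 231 CPM at SD1 and 209, 203 and 143 CPM at SD2. In the double line it read 294, 177 and 458 CPM in LD, 129, 391 and 293 CPM at SD1 and 164, 164 and 72.3 CPM at SD2. Every double-line SD2 library was below every double-line LD library. This difference was called, at -1.21 ± 0.36 (SE) on the log2 scale, or 2.32-fold lower, with an edgeR adjusted p of 0.0236, where 15.7% of all genes were called. The call was lost in 4 of the 6 runs that left out 1 library of the groups compared, those without LD replicate 1 or 3 or SD2 replicate 1 or 3, where the adjusted p rose to as much as 0.151. It was lost too when these 6 libraries were fitted alone (edgeR adjusted p = 0.198). In that fit 0 of all genes passed, so this loss was not particular to gamma-TIP2.

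Wild type changed by -0.33 ± 0.35 in gamma-TIP2 from LD to SD2 (edgeR adjusted p = 0.609), and the double line's SD2 change differed from that of wild type by -0.88 ± 0.50, which did not pass (edgeR adjusted p = 0.299) where 6.17% of genes did. For PIP1 the same difference of changes was -0.12 ± 0.49 (edgeR adjusted p = 0.931). For PIP2 it was -4.42 ± 0.63, a value that the choice of the gene fixed in its direction. The 2 relatives' intervals are wide, and a p above the threshold does not show that the lines act alike.

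In the single line the 3 aquaporins stood close together in their SD2 differences. PIP1 read 130, 98.7 and 128 CPM in LD, 142, 178 and 177 CPM at SD1 and 71.6, 45.3 and 57.8 CPM at SD2. Gamma-TIP2 read 315, 354 and 280 CPM in LD, 321, 413 and 337 CPM at SD1 and 148, 148 and 194 CPM at SD2. For both, all SD2 libraries lay below all LD and SD1 libraries. How many of all genes separate in this way, here or in the other comparisons, was not counted. The log2 difference of SD2 from LD was -1.03 ± 0.35 (SE) for PIP1, -0.95 ± 0.35 for gamma-TIP2 and -0.96 ± 0.43 for PIP2.

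These single-line differences fell short of the threshold in the fit of all 27 libraries, where 9.97% of genes passed, with edgeR adjusted p-values of 0.0623 for PIP1 and 0.0884 for gamma-TIP2. They passed when the single-line LD and SD2 libraries were fitted alone, with edgeR adjusted p-values of 0.0105 and 0.00792. DESeq2 also called both, with adjusted p-values of 0.0272 and 0.0450. The fit of those libraries alone called 18.2% of its tested genes and DESeq2 16.2%. PIP2 passed under neither, at 0.0680 and 0.106. From SD1 to SD2 the log2 differences were -1.51 ± 0.35, -1.12 ± 0.35 and -1.48 ± 0.44 for PIP1, gamma-TIP2 and PIP2, with edgeR adjusted p-values of 0.312, 0.420 and 0.392 in the comparison where 3 genes passed. DESeq2 called PIP1 there, with an adjusted p of 0.0110, where it called 0.543% of its tested genes.

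**Figure D2:**
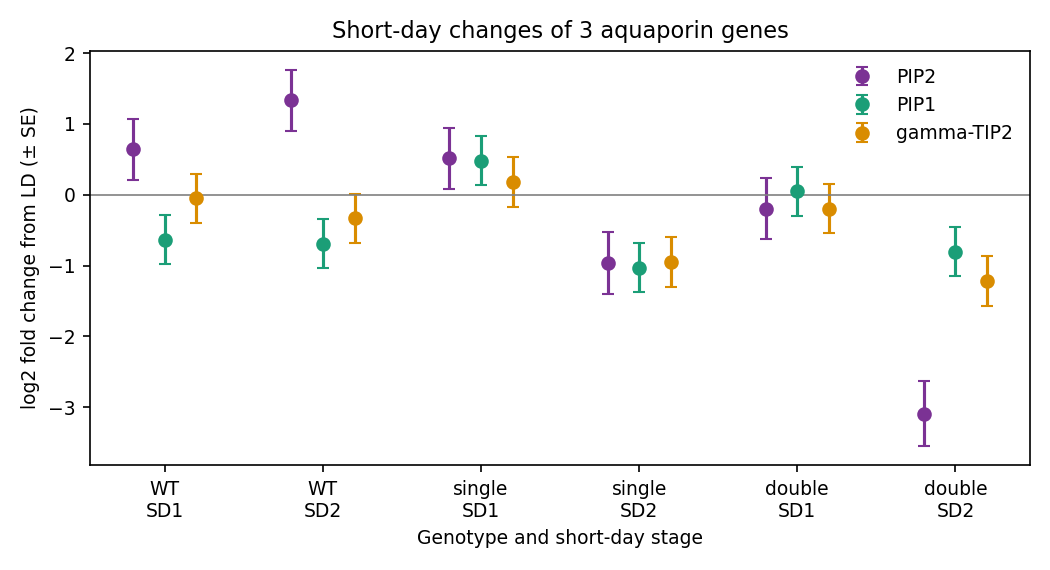
Fitted log2 change from LD to SD1 and SD2 for PIP2, PIP1 and gamma-TIP2 in each genotype, with standard errors as bars. At SD2 the 3 genes lie near -1 in the single line, while PIP2 alone is at 1.33 in wild type and -3.09 in the double line.

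Per transcript length, PIP2 was the least abundant of the 3 named aquaporins in the mean of every group. By the authors' FPKM values, PIP2 averaged 22.9 in wild-type LD and 62.4 at SD2, 42.2 and 24.2 in the single line, and 51.7 and 7.38 in the double line. Its share of the summed FPKM of the 3 genes averaged 6.94%, 12.5% and 19.5% in wild-type LD, SD1 and SD2, and the SD2 libraries ranged from 6.24% to 27.2%. In the single line the share stayed between 11.05% and 13.1% in the means of the 3 stages. In the double line it averaged 15.2%, 15.05% and 4.10%, with 3.16% to 4.95% at SD2.

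The summed FPKM of the 3 genes was lowest in double-line SD2, with a mean of 189, and in single-line SD2, with 212. It was 300.0 in wild-type SD2. Most of that sum is gamma-TIP2 in every group, so the sum says little of PIP2, and the named genes are not the whole family.

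**Figure D3:**
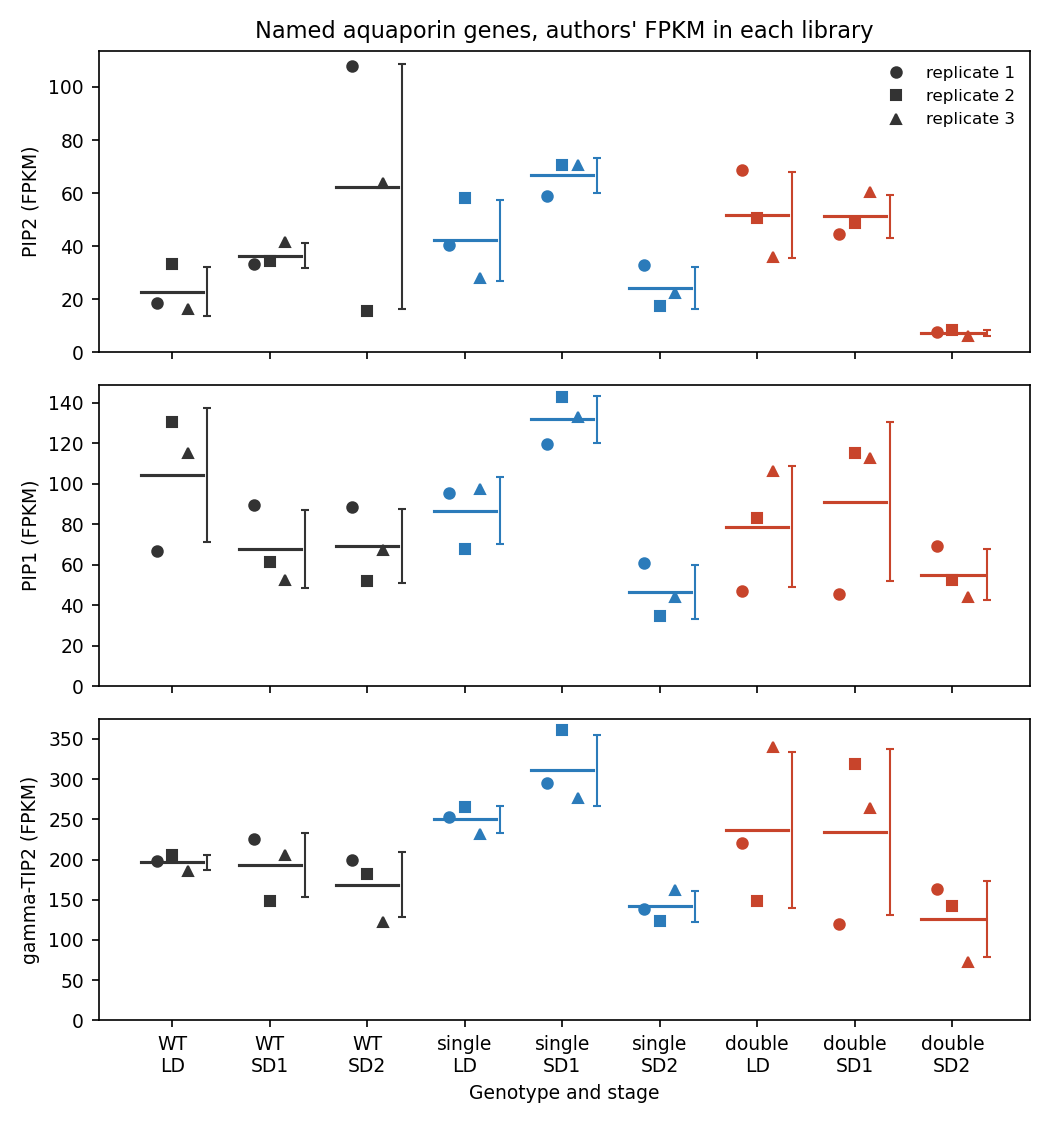
FPKM of PIP2, PIP1 and gamma-TIP2 in each library by genotype and stage, each gene on its own axis from 0, with horizontal lines at the means of 3 libraries and brackets for ± 1 SD. PIP2 is the lowest of the 3 in the mean of each group and nears the axis in double-line SD2, at a mean of 7.38.

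The genes whose course was most like that of PIP2 were sought among 341 named nuclear genes, by Pearson correlation of log2 CPM over the 27 libraries. The values are a description, since the libraries share genotype and stage. The 5 highest were CPK30.1, a calcium-dependent protein kinase, at 0.78, BRI1, the brassinosteroid receptor, at 0.77, CIPK14.1, a kinase that works with calcineurin B-like calcium sensors, at 0.76, NAC41.1, a NAC transcription factor, at 0.75, and cry1, a blue-light receptor, at 0.75. The 3 lowest were BiP, a chaperone of the endoplasmic reticulum, at -0.77, CPK3-2.1, another calcium-dependent kinase, at -0.72, and LSC222 at -0.70. PIP1 reached 0.50 and gamma-TIP2 0.60. Over all 51029 genes with a mean of at least 1 CPM the median was 0.01, and the 5th and 95th percentiles were -0.57 and 0.58.

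The likeness was weaker without double-line SD2. With its 3 libraries left out, a comparison added after the values were seen, r was 0.47 for CPK30.1, 0.46 for BRI1, 0.40 for CIPK14.1, 0.36 for cry1 and -0.44 for BiP over 24 libraries. Of the 5, NAC41.1 had the highest r there, at 0.62, and the highest value among the 24 was 0.69 for MPK1.1, a mitogen-activated protein kinase. The group levels give the detail. CPK30.1 averaged 12.5 ± 4.27 CPM in double-line LD and 2.92 ± 1.79 CPM at SD2 (SD, n = 3), but 7.84 ± 1.96 and 8.56 ± 0.87 CPM in wild type. BRI1 averaged 26.6 ± 11.1 and 7.21 ± 3.07 CPM in double-line LD and SD2, and 23.7 ± 4.01 and 27.4 ± 9.49 CPM in wild type.

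BiP ran the other way. It averaged 29.2 ± 8.77 CPM in double-line LD and 244 ± 154 CPM at SD2, against 35.1 ± 9.57 and 29.1 ± 13.7 CPM in wild type. The blue-light receptor gene cry1 averaged 125.3 ± 19.3 and 45.0 ± 15.8 CPM in double-line LD and SD2. In wild type the mean of cry1 was lower at SD2 than in LD, at 88.7 ± 4.10 against 108 ± 6.65 CPM. That difference did not pass, at -0.29 ± 0.22 (SE) on the log2 scale (edgeR adjusted p = 0.449), where 5.87% of genes did. The wild-type mean of PIP2 was higher at SD2, with ranges that overlapped.

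**Figure D4:**
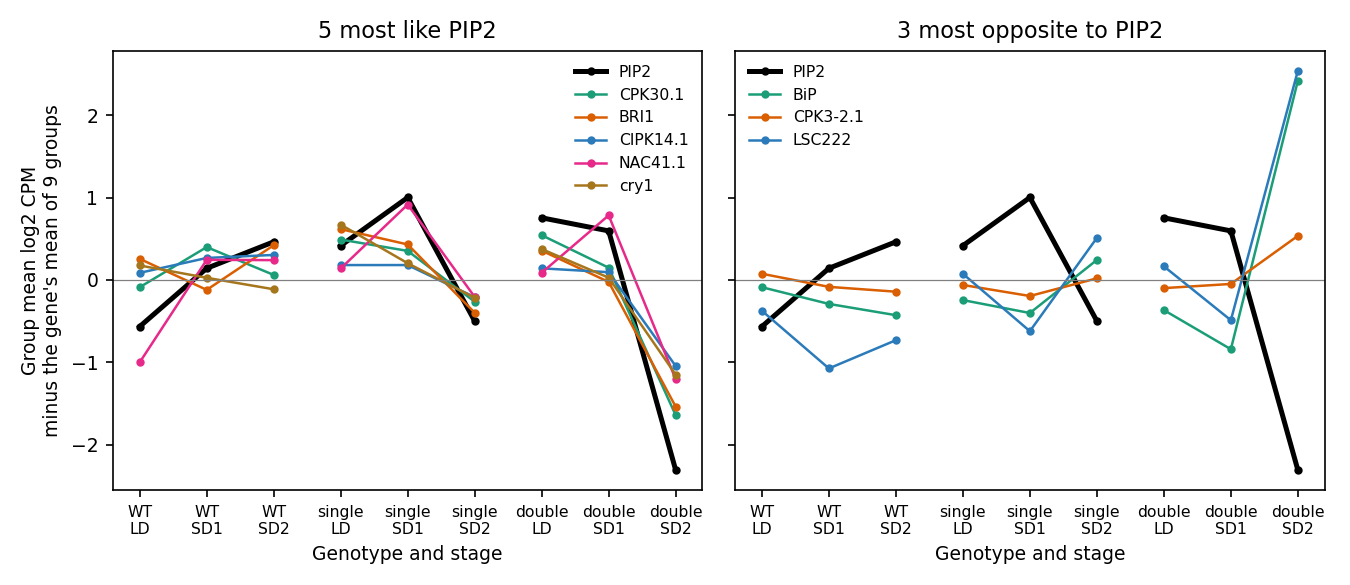
Mean log2 CPM in each of the 9 groups, less the gene's own mean over the groups, for PIP2 with the 5 named genes most like it (left) and the 3 most opposite (right). The 5 like genes are lowest at double-line SD2 along with PIP2, CPK30.1 at 2.92 CPM among them, and BiP and LSC222 peak there.

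Abscisic acid closes stomata and, in Arabidopsis, changes aquaporin expression and phosphorylation. Genes of this hormone were listed by the start of their names, such as ABI, ABF and NCED, and the list does not take in every named one. Of the 6 listed, 5 were tested. In wild-type SD2 against LD, where 3.22% of all genes were called higher and 2.65% lower, 1 of the 5 passed: ABI1.1, whose phosphatase product holds the hormone's signal down, rose from 27.4 ± 8.17 to 68.7 ± 17.1 CPM (log2 difference 1.33, edgeR adjusted p = 0.0155). The median of the 5 was 0.73, against 0.01 over all tested genes. At double-line SD2, where 8.87% of all genes were called higher and 6.88% lower, 1 of the 5 passed: ABF4-2.1, for a transcription factor that turns on abscisic acid targets, fell by 0.96 on the log2 scale, from 14.8 ± 2.61 to 7.61 ± 0.87 CPM (edgeR adjusted p = 0.00209). The median there was -0.10, against -0.03 over all genes.

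In single-line SD2, where 5.06% of all genes were called higher and 4.91% lower, ABF4-2.1 was again the 1 of the 5 that passed, lower by a log2 difference of -0.65 (edgeR adjusted p = 0.0303). The wild-type ABI1.1 call was lost without LD replicate 2 or 3 or SD2 replicate 1, 3 of 6 runs, and the single-line ABF4-2.1 call in 5 of 6, all but that without SD2 replicate 3. Their adjusted p-values reached 0.0964 and 0.132. ABI1.1 in the double line read 41.2, 39.3 and 22.0 CPM in LD and 42.4, 35.3 and 55.4 CPM at SD2, so its ranges overlapped there.

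Calcium-dependent protein kinases, the CPK family, phosphorylate membrane channels among other targets. Of 13 named, 12 were tested. In wild-type SD2 against LD, CPK12.1 passed, higher by 0.85 (edgeR adjusted p = 0.0324), where 5.87% of all genes passed. In the single line, 3 of the 12 were higher at SD2, CPK12.1 by 1.03, CPK10.1 by 1.40 and CPK6.1 by 2.04, and CPK11.1 was lower, with a log2 difference of -0.97, against 5.06% of all genes higher and 4.91% lower. CPK10.1 averaged 1.14 CPM in single-line LD and 3.02 CPM at SD2, below wild type at 8.09 and 9.17 CPM. CPK6.1 averaged 0.81 and 3.34 CPM in the single line, against 0.87 and 2.76 CPM in wild type. At double-line SD2, 3 of the 12 passed: CPK3-2.1 was higher by 0.61, and CPK30.1 and CPK11.1 were lower, with -2.10 ± 0.34 (SE) and -1.05, against 8.87% of all genes higher and 6.88% lower. With 1 library left out at a time, 6 runs each, the wild-type CPK12.1 call was lost in 4, the single-line calls of CPK11.1, CPK6.1 and CPK10.1 in 6, 5 and 2, and the double-line calls of CPK3-2.1 and CPK11.1 in 4 and 2.

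CPK30.1, which is also the named gene most like PIP2 over the same libraries, read 1.57, 4.95 and 2.24 CPM in double-line SD2, below the other 24 libraries, as PIP2 did. Its double-line SD2 difference had an edgeR adjusted p of 8.22e-04 and was called with each library left out, with 0.00811 as the highest adjusted p. It was lost when the 6 libraries were fitted alone (edgeR adjusted p = 0.0833), a fit in which 0 of all genes passed and 14617 had an unadjusted p under 0.05. The double line's change at SD2 differed from that of wild type by -2.23 ± 0.47 for CPK30.1 (edgeR adjusted p = 0.0207), where 3.47% of genes passed with a higher and 2.71% with a lower difference. This was lost in 6 of 12 runs with 1 library left out, those without wild-type LD replicate 3, SD2 replicate 1 or 3, double-line LD replicate 1 or SD2 replicate 1 or 3, with adjusted p-values up to 0.0748. Between the genotypes at SD2, where 3.49% of all genes were called higher and 3.31% lower, 4 of the 12 passed: CPK4.1, CPK4.2 and CPK3-2.1 were higher in the double line, by 1.56, 0.77 and 0.69, and CPK30.1 was lower, with -1.55. The calls of CPK4.1, CPK4.2, CPK3-2.1 and CPK30.1 were lost in 0, 4, 5 and 2 of 6 runs with 1 library left out. The median of the 12 was 0.57, against -0.01 over all genes. For the difference of SD2 changes it was 0.16, against -0.03 over all genes. CPK4.1 was higher in the double line in LD too, at 17.6 ± 1.65 CPM against 10.6 ± 3.01 CPM in wild type (SD, n = 3). The LD means of CPK4.2 were 16.6 ± 1.25 and 15.2 ± 2.73 CPM, and those of CPK3-2.1 were 26.4 ± 7.73 and 29.1 ± 3.28 CPM.

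Other membrane transporters were listed by the start of their names, such as SUT, BOR and AAP, and all 17 listed were tested. The list does not take in every named transporter gene, and MATE is among those left out. In wild-type SD2 the amino acid permease gene AAP5-1 was higher than in LD by 1.12 and the boron exporter gene BOR1 lower, with -2.75, where 5.87% of all genes passed. At double-line SD2, BOR, another boron exporter gene, was higher by 0.79, and BOR1 and the sucrose transporter gene SUT2-1 were lower, with -2.02 and -2.12, where 15.7% of all genes passed. Each of these 5 calls was lost in 4 or 5 of 6 runs with 1 library left out. BOR1 read 14.9, 11.7 and 79.4 CPM in double-line LD. Its difference there ran from -2.43 to -0.61 over those runs, the latter without LD replicate 3. In wild-type LD it read 50.3, 11.4 and 9.70 CPM, and the difference ran from -3.13 to -1.58, the latter without LD replicate 1. The median of the 17 was 0.03 in wild type and 0.05 in the double line, against 0.01 and -0.03 over all genes.

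SUT2-1 passed as lower at SD2 in the double line and did not pass in wild type. In wild type it read 31.1, 11.5 and 6.94 CPM in LD and 73.7, 50.3 and 43.4 CPM at SD2, with no overlap, a log2 difference of 1.75 ± 0.68 (SE, edgeR adjusted p = 0.119). In the double line it read 54.1, 59.2 and 13.6 CPM in LD and 4.45, 22.7 and 2.18 CPM at SD2, with overlap. The double line's SD2 change differed from that of wild type by -3.87 ± 0.97 (edgeR adjusted p = 0.0280). The 2 genotypes differed at SD2 by -2.52 (edgeR adjusted p = 0.0348), a call lost without wild-type or double-line SD2 replicate 1 or 3, with adjusted p-values up to 0.176. Without double-line SD2 replicate 2, the library that stood apart, the values were -5.43 for the difference of changes and -4.07 between the genotypes. The difference of changes was lost in 8 of 12 runs with 1 library left out, those without wild-type LD or SD2 replicate 3, LD replicate 2, SD2 replicate 1, double-line LD replicate 1 or 2 or SD2 replicate 1 or 3, with adjusted p-values up to 0.0898.

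Tissue marker levels were set beside those of PIP2. The 4 vascular markers, cellulose synthase genes of the secondary wall (CesA4.1, CesA4.2, CesA7.1 and CesA8.1), had lower summed means at SD2 than in LD in every genotype, whichever way PIP2 went. They summed to 24.4 to 30.7 CPM in wild-type LD and 4.10 to 12.6 CPM at SD2, where the mean of PIP2 was higher. In the single line they summed to 17.7 to 25.9 and 5.12 to 12.1 CPM, and in the double line to 13.5 to 30.1 and 7.73 to 15.7 CPM, where PIP2 was lower.

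The 2 phloem markers, SUT1-2 and SUT2-1, summed to 25.5 to 53.8 CPM in wild-type LD and 58.9 to 85.4 CPM at SD2, to 33.9 to 71.6 and 62.7 to 70.6 CPM in the single line, and to 53.9 to 88.6 and 19.8 to 54.1 CPM in the double line. In the single line the phloem mean was thus higher at SD2, 65.6 against 49.5 CPM, and that of PIP2 lower. The sum hides opposite courses in wild type and in the single line. In wild type SUT1-2 averaged 20.01 ± 2.27 CPM in LD and 13.0 ± 2.16 CPM at SD2 (SD, n = 3). SUT2-1 averaged 16.5 ± 12.9 and 55.8 ± 15.9 CPM there. In the single line SUT1-2 averaged 17.8 ± 4.12 and 9.94 ± 2.99 CPM, and SUT2-1 averaged 31.7 ± 19.1 and 55.7 ± 5.91 CPM. SUT2-1 is in both the transporter and the phloem list, and no vascular or phloem sum was at 0. The part of tissue makeup in the PIP2 levels was not tested.

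The genes beside PIP2 along the Da-Ae reference gene order were compared with it. Of the 10 genes on each side, 16 of 20 were tested. Between the double line and wild type at SD2 their median log2 difference was -0.06, with 1 called higher, LOC106392747 by 2.97 (edgeR adjusted p = 0.00502), and 1 called lower, LOC106392722 by -2.47 (edgeR adjusted p = 0.0377), against 3.49% and 3.31% of all genes. The latter averaged 0.366 CPM over all libraries. In LD, where PIP2 differed between those genotypes by 1.30, the neighbours ranged from -5.49 to 1.19 with a median of 0.04, and in single-line LD, where PIP2 differed from wild type by 0.99, it was -0.28. The -5.49 was that of LOC106420066, which averaged 0.0687 CPM over all libraries and was not called (edgeR adjusted p = 0.433). The next lowest neighbour in that comparison was at -0.49. From LD to SD2 in the double line 5 of the 16 were called, 3 higher and 2 lower, with a median of -0.21, against 8.87% and 6.88% of all genes.

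**Figure D5:**
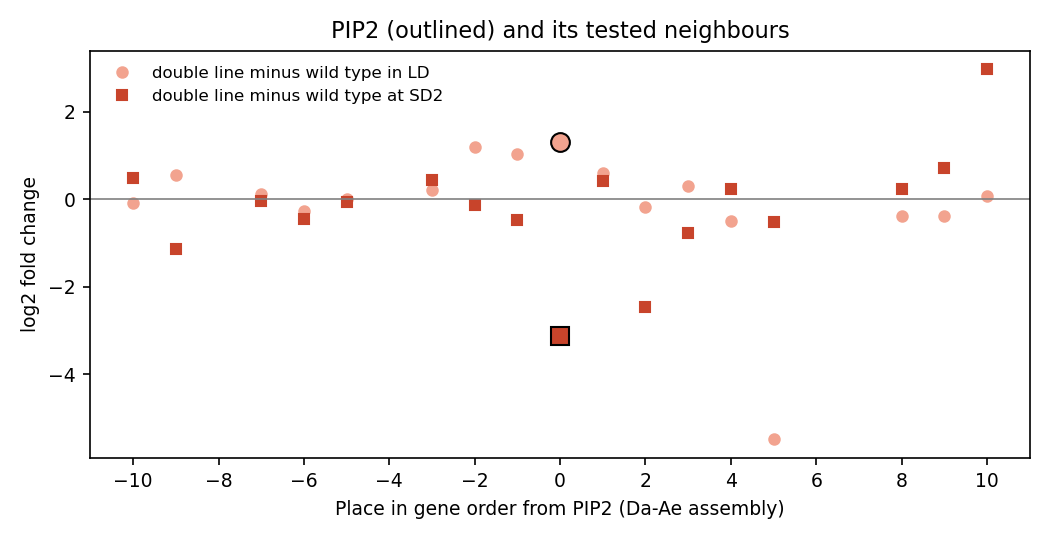
Log2 difference between the double line and wild type for PIP2 and the tested genes among the 10 on each side in the Da-Ae gene order, by place in that order, in LD (circles) and at SD2 (squares), with PIP2 outlined. At SD2 the neighbours have a median of -0.06, while PIP2 is at -3.12.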

How the data were processed

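RNA was sequenced from leaves in 9 groups of 3 libraries, grouped by the genotype and stage in their labels. Per the labels, TRIzol RNA and the TruSeq v2 kit were used. Trim Galore and HISAT2, a trimmer and an aligner, are named per the submitters' processing notes. Not given in the sources used here: versions, genome build, counting tool, strand and the treatment of reads shared by similar genes. The table of read counts per gene is used as the authors deposited it, not scaled to depth. The FPKM table is also the authors' own, by a method not stated, and served to compare genes per length and as a check.

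Of 119533 entries in the counts, 1 naming no gene, at most 2.61e-05% of a library's counts, was left out. In R 4.3.3 with edgeR 4.0.16, the low-count filter by group kept 72039 genes, PIP2 among them. One robust quasi-likelihood fit held all 27 libraries (18 residual degrees of freedom, TMM factors 0.862 to 1.14, common coefficient of biological variation 0.399). Adjusted p-values are Benjamini-Hochberg over all tested genes, threshold 0.05. CPM used TMM-scaled totals, and the log2 CPM for likeness a prior count of 2. The fit was also run on counts simulated with its own estimates of spread, the same in every group. That run cannot show how the fit handles groups of unequal spread. DESeq2 1.42.0, other normalizations, no filter, a replicate block, a fit of only the groups compared and left-out libraries were alternatives.

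PIP2, the lists and the rules for named genes were chosen with earlier results of these data known. The rules name all named aquaporins, the called members of the lists for abscisic acid, CPK and transporter genes, the 5 genes most and 3 least like PIP2 by r among named nuclear genes with a mean of at least 1 CPM, and the 10 neighbours on each side. MPK1.1 was chosen after values were seen. Names came from a RefSeq table of the Da-Ae assembly, which names 482 of the genes. No 2 replicates of the same group were alike within counting noise (chi-square per gene of at least 20.2). Pairs of libraries from different groups were not checked. No marker of guard cells, epidermis or root carries a name.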

Additional observations from a re-analysis of the deposited data

Results flagged for a closer look

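Among the 5, 12 and 17 tested members of the abscisic acid, CPK and transporter lists and the 2 aquaporin relatives, 3 had a double-line change from LD to SD2 that differed from the wild-type change in a test of that difference (edgeR adjusted p under 0.05), where 6.17% of all genes did. Genes picked for their likeness to PIP2 over the same libraries are left out of this count unless they are list members. CPK30.1, a calcium-dependent protein kinase gene, differed by -2.23 on the log2 scale, SUT2-1, a sucrose transporter gene, by -3.87, and BOR, a boron exporter gene, by 1.10. BOR read 12.4, 17.6 and 14.4 CPM in double-line LD and 24.2, 25.1 and 27.6 CPM at SD2, with no overlap, and 23.6, 16.2 and 16.7 against 16.2, 16.3 and 13.0 CPM in wild type. Its difference of changes had an edgeR adjusted p of 0.0498 and was lost in 11 of 12 runs with 1 library left out.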

How the results depend on the processing

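PIP2's 3 single-line differences kept their direction and stayed short of the threshold in all 36 alternative values. With 1 replicate left out they spanned 0.28 to 0.89 (SD1 against LD), -1.22 to -0.61 (SD2 against LD) and -1.70 to -1.33 (SD2 against SD1). The replicate numbers do not pair the libraries: over 108 same-number pairs the deviations correlated at -0.262 to 0.213, and 10 of 27 libraries correlated best with their own number. With a replicate block the 3 differences were 0.54, -0.96 and -1.50. PIP2's group-mean log2 change from double-line LD to SD1, -0.16, turned to 0.00661 on raw totals, 0.023 and 0.022 in FPKM with a pseudocount of 0.1 and 1, and ran from -0.36 to 0.093 with 1 replicate left out. From double-line LD to SD2 it was -2.62 in FPKM with a pseudocount of 1, against -3.07.

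Counts of called genes moved more. A fit of only the groups compared gave, against the main counts, 4 for wild-type SD1 against LD (81), 627 for single-line SD1 (193), 11659 for single-line SD2 (7180), 1 for single-line SD2 against SD1 (3), 0 for double-line SD1 (195; 5773 with an unadjusted p under 0.05) and 0 for double-line SD2 (11340; 14617 unadjusted). It gave 272 between double line and wild type at SD2 (4899) and 2 for the difference of SD2 changes (4446). DESeq2 called 2354 for wild-type SD1, 8716 for wild-type SD2 (4229 in edgeR), 2159 and 11191 for single-line SD1 and SD2, 376 for single-line SD2 against SD1, 1745 for double-line SD1, 8968 between genotypes at SD2 and 8160 for the difference of changes. Without double-line SD2 in the fit, SD1 counts were 173, 895 and 501 in wild type, single and double line. The block gave 50 for wild-type SD1 and no filter 97 for double-line SD1. With 1 replicate left out, counts ran from 4 to 1328 and 37 to 5972 for wild-type SD1 and SD2, 7 to 181 and 2244 to 4617 for single-line SD1 and SD2, 2 to 15 for single-line SD2 against SD1, 0 to 424 and 4253 to 19117 for double-line SD1 and SD2, 1126 to 13280 between genotypes at SD2 and 10 to 10643 for the difference of changes. The causes were not tested.

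Of the 2 aquaporin relatives, 0 were called in single-line SD2 in the main fit, and 2 with only the groups compared and 2 in DESeq2. In double-line SD2, 1 was called, 0 with only the groups compared, where 0 of all genes passed, and 0 to 1 with 1 replicate left out. Uncalled differences changed sign with 1 replicate left out: gamma-TIP2 in wild-type SD1 (-0.21 to 0.12) and double-line SD1 (-0.55 to 0.20), and PIP1 in double-line SD1 (-0.22 to 0.39) and in the difference of SD2 changes (-0.38 to 0.21). Of 291 alternative values for called list members, 171 kept the call and 120 lost it, all in the same direction. Relatives by protein identity were not run, since no protein table was used here.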
